A study of Rattus norvegicus with 18 samples.

Results

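Of 18 rat livers profiled on 1 Affymetrix array each, 9 came from rats killed at 6 months. Among those 9, 3 livers stood apart by high transcript levels of fatty acid synthesis genes and low levels of fatty acid oxidation genes. They are the livers at 6 months whose sample titles end in number 2, 1 for each dietary oil. They are called the number 2 livers here. They were chosen by their measured values, after earlier results of these data had shown them apart from the 6 livers numbered 1 and 3 in Scd, Fasn and Fgf21. The contrast of number 2 with numbers 1 and 3 at 6 months is therefore given as a description, with no test. The labels do not say what the number stands for.

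All animals were male Wistar rats that had eaten, since weaning, a semi-synthetic diet of which fat made up 4% by weight. That fat was fish oil, sunflower oil or virgin olive oil. Each oil had 3 livers at 6 months (young) and 3 at 24 months (old), since the study compared ages and oils. Food was freely available at first and rationed later, and cages held 3 rats. The labels do not say which rats shared a cage, at what hour a rat was killed or how long before that it had eaten, so p-values measure only the spread between these animals as housed. Signals are the deposited linear intensities of the probe set with the highest mean for a gene. Differences are on the scale of log2(signal + 16), which understates changes of dim genes.

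The liver makes fatty acids from citrate. ATP citrate lyase releases acetyl-CoA, acetyl-CoA carboxylase turns it into malonyl-CoA, fatty acid synthase assembles palmitate, and a desaturase and elongases modify the product. After a meal rich in carbohydrate, insulin acts on these genes through the factor SREBP-1c and sugar through ChREBP. In the fasted liver, the nuclear receptor PPARα raises genes of fatty acid oxidation and the hormone Fgf21.

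The promoters of 5 genes that the results turn on are printed to show the sequence from which genes that differed together are transcribed. Scd, Thrsp and Acly were higher in the number 2 livers, and Fgf21 and Acot1 were lower. Each window runs 5′ to 3′ on the gene's own strand, from 250 bases before to 50 bases after a transcript start in RefSeq, build GRCr8. The windows are chr1:253231682-253231981 (minus strand) for Scd, chr1:161138915-161139214 (minus strand) for Thrsp, chr10:85963582-85963881 (minus strand) for Acly, chr1:105221327-105221626 (minus strand) for Fgf21 and chr6:109367024-109367323 (plus strand) for Acot1. The Scd and Acly windows lie inside the annotated span of the gene, because other transcripts start farther upstream. Capitals mark motif matches.
Scd: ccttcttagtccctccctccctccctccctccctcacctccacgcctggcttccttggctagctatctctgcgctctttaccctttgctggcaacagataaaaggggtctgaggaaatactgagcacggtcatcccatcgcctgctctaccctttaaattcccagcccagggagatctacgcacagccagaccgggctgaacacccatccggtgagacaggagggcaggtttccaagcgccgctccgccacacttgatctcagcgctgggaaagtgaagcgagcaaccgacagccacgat
Thrsp: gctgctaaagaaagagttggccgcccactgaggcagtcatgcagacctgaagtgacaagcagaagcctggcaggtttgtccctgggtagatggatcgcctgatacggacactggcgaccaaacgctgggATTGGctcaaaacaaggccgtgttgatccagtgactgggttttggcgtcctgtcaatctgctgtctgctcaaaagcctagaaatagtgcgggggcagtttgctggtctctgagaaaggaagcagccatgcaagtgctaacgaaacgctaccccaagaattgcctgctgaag
Acly: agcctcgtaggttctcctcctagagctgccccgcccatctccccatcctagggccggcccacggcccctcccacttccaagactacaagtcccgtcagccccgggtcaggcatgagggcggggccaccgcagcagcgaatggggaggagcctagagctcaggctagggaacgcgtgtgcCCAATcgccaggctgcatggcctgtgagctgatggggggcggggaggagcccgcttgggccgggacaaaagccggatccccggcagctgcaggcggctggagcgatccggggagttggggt
Fgf21: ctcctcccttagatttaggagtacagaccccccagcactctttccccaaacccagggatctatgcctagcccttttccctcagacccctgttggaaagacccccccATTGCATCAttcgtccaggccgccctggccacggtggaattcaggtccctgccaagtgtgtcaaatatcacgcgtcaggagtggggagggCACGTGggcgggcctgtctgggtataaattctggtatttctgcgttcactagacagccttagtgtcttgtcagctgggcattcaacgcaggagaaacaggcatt
Acot1: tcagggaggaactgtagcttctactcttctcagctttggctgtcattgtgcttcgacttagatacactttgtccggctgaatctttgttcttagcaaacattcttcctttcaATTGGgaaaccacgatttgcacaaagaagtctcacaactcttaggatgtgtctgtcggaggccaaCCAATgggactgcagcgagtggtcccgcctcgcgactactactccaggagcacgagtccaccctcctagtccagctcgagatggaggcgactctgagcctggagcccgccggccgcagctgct

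Both strands of each window were searched for 3 motifs. These were the E-box CACGTG, the CCAAT box CCAAT and the amino acid response element TGATGNAAT, and no motif contains another. The Scd window held none of these letters. The Thrsp window held a CCAAT box on the minus strand from -121, and the Acly window 1 on the plus strand from -71, counted from the start site. In Fgf21 an E-box began at -54 and an amino acid response element on the minus strand at -144. The Acot1 window held CCAAT boxes at -138 (minus strand) and -73 (plus strand). Among all 33469 promoters in the table, 6.42% held the E-box, 37.5% the CCAAT box and 1.09% the amino acid response element. A match describes the letters and is not a binding site.

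A gene was counted as separated where all 3 number 2 livers lay on one side of all 6 number 1 and 3 livers at 6 months and the mean difference over the oils was at least 1 on the log2 scale. By that rule 96 of 14217 genes (0.675%) were higher and 72 (0.506%) were lower in the number 2 livers, 168 (1.18%) in all. Without the 2-fold condition, 544 genes (3.83%) lay above and 695 (4.89%) below every compared liver. The median difference over all genes was -0.03, against 1.37 for the higher and -1.35 for the lower genes. Just inside the threshold lay Wdr6 at 1.00, Ablim3 at -1.01 and Nuak2 at -1.01, and just outside it Asb5 at 0.996, Gpt at -0.998 and Insig2 at -0.98. Promoters in the table matched 85 of the higher and 61 of the lower genes. The E-box was in 7 (8.24%) of the former and 13 (21.3%) of the latter, beside 9.35% of the 11733 measured genes with a promoter. The CCAAT box was in 44 (51.8%) and 28 (45.9%), beside 38.6%.

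Fatty acid synthesis genes had the highest median difference of 19 gene lists. Of 21 measured members (22 listed) of the fatty acid synthesis and desaturation list, 9 were separated and higher, 0 were lower and the median difference was 1.12. Among all genes 0.675% were separated and higher. The 9 include Scd and Fasn, by which the livers were chosen. Scd encodes stearoyl-CoA desaturase, which makes monounsaturated fatty acids. Its signal in the number 2 livers was 8930.1 with olive oil, 8055 with sunflower oil and 6102 with fish oil. In the 6 number 1 and 3 livers it ran from 1.4 to 25.8 (median 9.7). Every number 2 liver was far above every other liver at 6 months, and the groups did not overlap. The difference was 8.15 ± 0.39 (SD over 3 oils), or 284-fold on this scale, and with the compared signals near or under the added 16 this fold depends on that constant.

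Fasn, fatty acid synthase itself, had a signal of 2535 with olive oil, 1456 with sunflower oil and 1161 with fish oil in the number 2 livers. In the other 6 livers it ran from 33.1 to 95.3 (median 73.1). The lowest number 2 liver, with fish oil, was still above all of them, with a difference of 4.37 ± 0.38 (20.7-fold). Acly, which supplies acetyl-CoA, had number 2 signals of 4504, 2786 and 1655 in the order olive, sunflower and fish oil. The other livers ran from 215 to 465 (median 283), again with no overlap and a difference of 3.11 ± 0.45. Acaca, acetyl-CoA carboxylase, followed with 3.11 ± 0.28.

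Thrsp, a nuclear and cytosolic protein known as Spot 14 that accompanies lipogenesis, varied widely among the compared livers. Its number 2 signals were 8598, 6056 and 5140.2 for olive, sunflower and fish oil. The other livers ran from 182 to 2376 (median 291). The highest of them was olive oil number 1, which stood between its group and the number 2 livers. The difference was 3.91 ± 0.38, and all 3 probe sets of the gene gave 3.85 or more.

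Elovl6, an elongase of palmitate, differed by 3.11 ± 1.03, with number 2 signals of 1080.0, 292 and 213 in the order of oils above. The olive oil liver was well above the sunflower and fish oil livers, all of them above the others at 13.9 to 56.3 (median 33.7). The suppliers of NADPH and acetyl-CoA were higher as well: Me1, malic enzyme, by 2.94 ± 0.81, Pgd of the pentose phosphate pathway by 2.46 ± 0.49, and Acss2, acetyl-CoA synthetase, by 2.35 ± 0.25. Fads1, a desaturase of polyunsaturated fatty acids, had a difference of 1.12 ± 0.37, but sunflower oil number 1 (3009.6) overlapped the number 2 livers (3865, 3762 and 2085). Elovl5, an elongase of the same branch, had a difference of -0.45 ± 0.06 and was not separated.

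**Figure D1:**
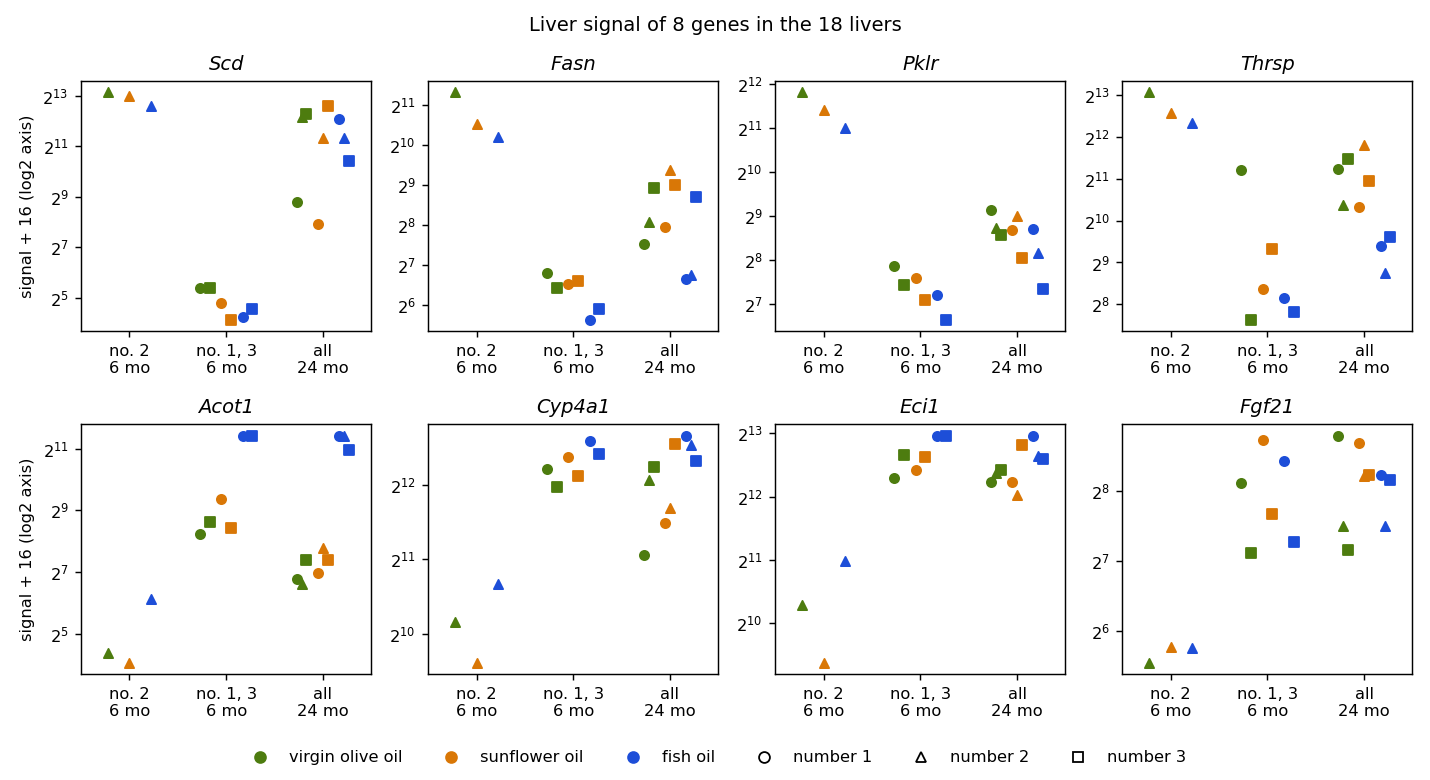
Signals plus 16 on a log2 axis for 8 genes in all 18 livers, grouped as number 2 at 6 months, numbers 1 and 3 at 6 months and all livers at 24 months, with colour for the oil and marker shape for the number. The number 2 livers at 6 months sit above all 6 compared livers for Scd, Fasn, Pklr and Thrsp and below them for Acot1, Cyp4a1, Eci1 and Fgf21. For Scd, 7 of the 9 livers at 24 months lie on the number 2 side of the log2 midpoint between the young groups.

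Regulators of this pathway were described in the same way. Of 17 measured members of the lipogenic regulator list 1 was separated, beside 1.18% of all genes, and the median difference was -0.07. At that share, the count says little about this list. The separated gene was Mlxipl, which encodes ChREBP, with signals of 119, 130.1 and 141 against 37.6 to 70.3 (median 56.1) and a difference of 1.08 ± 0.08. It fell just short of the threshold without olive oil number 1 (0.998) or fish oil number 3 (0.983), and was 0.73 with a pseudocount of 64. Srebf1, which encodes SREBP-1, had a difference of 0.99 ± 0.71, but olive oil number 1 (1107.8) lay above all 3 number 2 livers (925, 962 and 1015). Insig1, an endoplasmic reticulum protein that holds back SREBP processing and is itself a target of it, had a difference of 1.59 ± 0.13. Its groups overlapped through olive oil number 3 (2777). Insig2, its relative, lay below all 6 others at 592, 1645 and 1716, with a difference of -0.98 ± 0.67, just short of the threshold.

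Genes of sugar use were higher alongside. Of 18 measured members (23 listed) of the glycolysis and glycogen list 6 were separated, all higher, and the median difference was 0.66. The share of all genes separated and higher was 0.675%. Pklr, the pyruvate kinase of liver and a known ChREBP target, had number 2 signals of 3579 with olive oil, 2710.3 with sunflower oil and 2043 with fish oil. The other livers ran from 83.5 to 216 (median 144). The number 2 liver was above both others by nearly the same amount in each oil, with a difference of 4.11 ± 0.05 (17.3-fold), and the other probe set gave 4.51. Khk, which phosphorylates fructose, differed by 1.10 ± 0.14, Gpi, phosphoglucose isomerase, by 1.57 ± 0.30, Gbe1, the glycogen branching enzyme, by 1.41 ± 0.13, and Pygl, liver glycogen phosphorylase, by 1.12 ± 0.12.

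Slc2a5, a fructose transporter, had number 2 signals of 677, 345 and 192 and a difference of 2.63 ± 0.47. Tkfc, triokinase, differed by 2.55 ± 0.36, while its dimmer second probe set gave 0.27. Tkt, transketolase of the pentose phosphate pathway, differed by 2.40 ± 0.15 and Taldo1, transaldolase, by 1.04 ± 0.38. In these 4 genes no number 2 liver overlapped the others.

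No gluconeogenic gene was separated. With 1.18% of all genes separated, 0 of 14 measured members (16 listed) says little about this list. Its median difference was 0.12, with a range from -1.76 to 0.93. In all, 1 member lay above and 2 lay below every compared liver, and Gpt just missed the threshold at -0.998. Pck1, the cytosolic phosphoenolpyruvate carboxykinase and the classic fasting gene of the pathway, had number 2 signals of 7237, 7707 and 6769. The others ran from 6701 to 7654 (median 7519.6). The groups overlapped, with a difference of -0.02 ± 0.05. Ppargc1a, also on the list, was not separated, at 0.16 ± 0.21. G6pc1, glucose-6-phosphatase, was not analysed here.

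Cholesterol synthesis genes were higher to a smaller extent. Of 18 measured members (23 listed) 7 were separated, all higher, 10 lay above every compared liver and the median difference was 0.87. Among all genes 0.675% were separated and higher and 3.83% lay above every compared liver. Fdps, farnesyl diphosphate synthase, had number 2 signals of 3401, 3334 and 1486 against 474 to 942 (median 626) and a difference of 1.97 ± 0.38. Cyp51, lanosterol demethylase, differed by 1.86 ± 0.08, Dhcr7, the last enzyme of a branch to cholesterol, by 1.69, Acat2, which makes acetoacetyl-CoA, by 1.51 ± 0.56 and Idi1, isopentenyl diphosphate isomerase, by 1.46 ± 0.22. In Fdps, Acat2 and Idi1 the fish oil liver was the lowest of the 3 number 2 livers.

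Triglyceride and lipid droplet genes went both ways. Of 26 measured members (27 listed) 2 were higher and 2 lower, beside 0.675% and 0.506% of all genes, and the median difference was -0.24. Lpin1, a phosphatidate phosphatase, was higher by 2.19 ± 0.98. Pnpla3, a lipid droplet protein and lipogenic target, had number 2 signals of 556 with olive oil, 291 with sunflower oil and 28.3 with fish oil against 6.1 to 12.7 (median 8.4) in the others. The 3 number 2 livers thus ranged widely, and the fish oil liver lay only just above the others. The difference of 3.00 ± 1.96 had the largest SD over oils of those printed here. Plin5, a droplet coat protein of oxidative tissues, was lower, at -1.29 ± 0.24, and so was Agpat3, an acyltransferase, at -1.26. Gpam, also on the list, was not separated, at -0.02 ± 0.46 (0.16 from its other probe set). Plin2, the main droplet coat of hepatocytes, lay below all 6 others at 917, 1517 and 1686 against 2273 to 2805 (median 2705) but missed the 2-fold threshold.

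**Figure D2:**
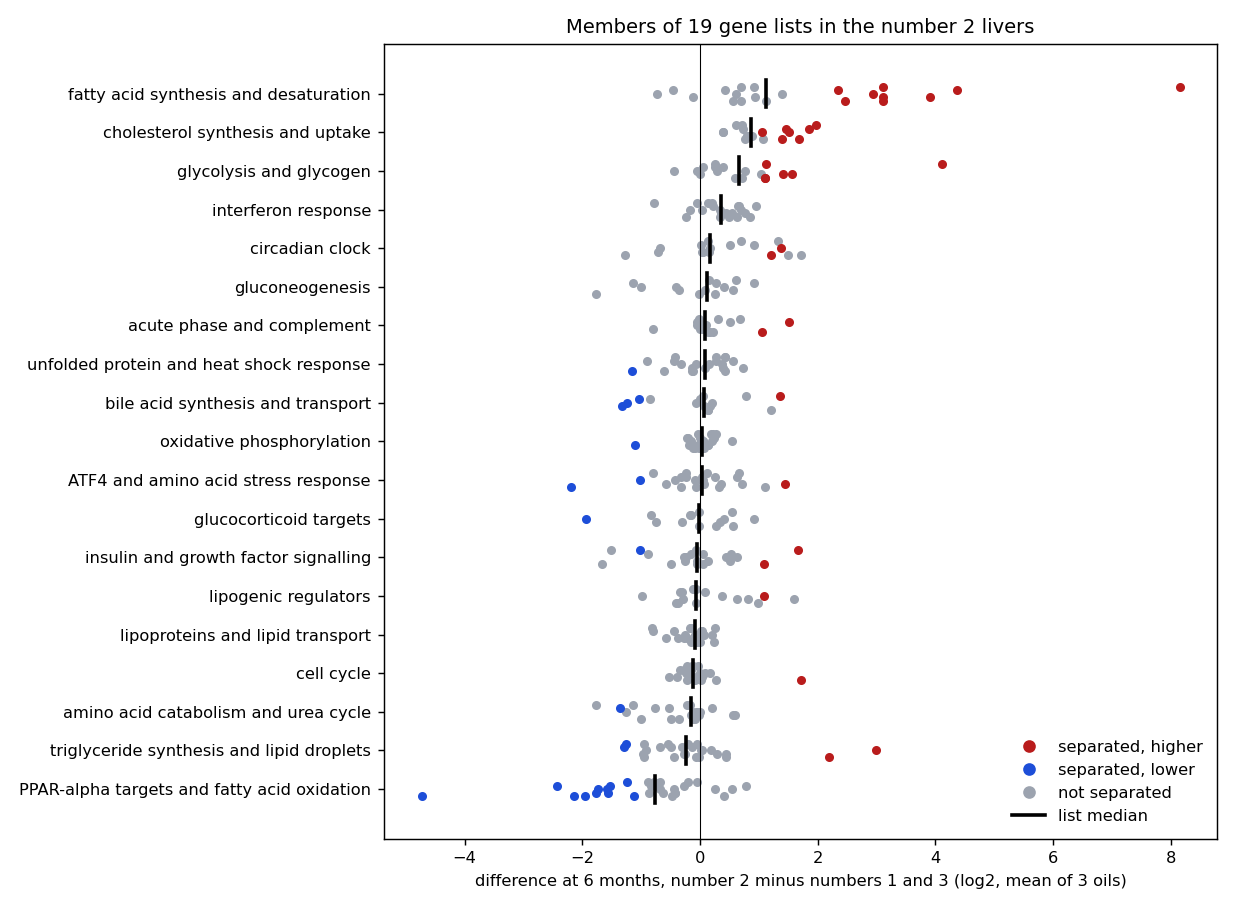
Each point is 1 measured gene of 19 lists, placed by its difference at 6 months (number 2 minus numbers 1 and 3, log2, mean of 3 oils), with red and blue for genes separated higher and lower, grey for the rest and a black bar for the list median. The medians run from 1.12 for fatty acid synthesis and desaturation to -0.76 for PPAR-alpha targets and fatty acid oxidation.

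Fatty acid oxidation genes had the lowest median difference of the 19 lists. Of 30 measured members (36 listed) of the list of PPARα targets and fatty acid oxidation, 11 were separated and lower, 0 were higher, 22 lay below every compared liver and the median difference was -0.76. Among all genes 0.506% were separated and lower and 4.89% lay below every compared liver. Acot1, a cytosolic acyl-CoA thioesterase and strong PPARα target, had number 2 signals of 4.8 with olive oil, 0.5 with sunflower oil and 53.5 with fish oil. The number 1 livers stood at 283, 645 and 2728 and the number 3 livers at 376, 333 and 2688 in the same order. Within each oil the number 2 liver was the lowest, and the fish oil livers were the highest of each number. The difference was -4.73 ± 0.64, or 26.6-fold lower on this scale. With number 2 signals under the added 16 for olive and sunflower oil, this size depends on that constant, from -6.58 with 1 added to -3.37 with 64, and the groups did not overlap. Acot2, Acot3 and Acot4, its near-identical neighbours whose probes may share transcripts, were lower too, at -1.77 ± 0.46, -1.58 ± 0.14 and -1.53 ± 0.24.

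The ω-hydroxylase Cyp4a1, the textbook PPARα target of rat liver, had number 2 signals of 1122 with olive oil, 763 with sunflower oil and 1607 with fish oil. The other livers ran from 3988 to 6168 (median 5016). All 3 number 2 livers were well below the lowest of them, with a difference of -2.14 ± 0.44 (4.41-fold lower), and the related Cyp4a3, whose probes may cross-hybridise, gave -1.57 ± 0.64. Eci1, an enoyl-CoA isomerase of mitochondria, stood at 1234, 645 and 2004 against 4992 to 7933 (median 6376) and differed by -2.44 ± 0.63. A dim second probe set of Eci1 gave -0.37. Ech1 and Ehhadh, enzymes of the oxidation of unsaturated and peroxisomal substrates, differed by -1.73 ± 0.37 and -1.24 ± 0.51, Hadhb of the trifunctional protein by -1.12 ± 0.13, and Vnn1, a pantetheinase, by -1.96 ± 0.37. The margin for Vnn1 was narrow, with the fish oil number 2 liver at 646.4 and olive oil number 1 at 646.9.

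Slc22a5, the carnitine transporter of the plasma membrane, stood at 78.2, 50 and 81.9 against 184 to 420.1 (median 277), and Crat, carnitine acetyltransferase, at 74.2, 105 and 211 against 293 to 689.5 (median 411). Neither gene overlapped. Cpt1a, the gate of mitochondrial fatty acid entry, lay below all 6 others at 3120.4, 2609.9 and 1548 against 3628 to 5424 (median 4187), with a difference of -0.87 ± 0.36 that missed the threshold. Ppara itself overlapped, with a difference of 0.41 ± 0.44. Pdk4, which brakes glucose oxidation, was below the others at 238, 214 and 312 against 330.0 to 932 (median 378) and differed by -0.74 ± 0.63.

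Fgf21, a hormone secreted by the liver in fasting and under amino acid stress, had number 2 signals of 30.4 with olive oil, 38.4 with sunflower oil and 37.9 with fish oil. The number 1 livers stood at 261, 407 and 326 and the number 3 livers at 122, 187 and 138 in the same order of oils. The 3 numbers thus formed 3 bands without overlap, number 2 lowest and number 1 highest. The difference of number 2 from the others was -2.20 ± 0.20 (4.59-fold lower). Of 24 measured members of the ATF4 and amino acid stress list, which includes Fgf21, 2 were lower and 1 was higher, and the list median was 0.03. The shares of all genes were 0.506% lower and 0.675% higher. The other lower gene was Trib3, a pseudokinase induced by ATF4, at -1.02, and the higher one was Phgdh, of serine synthesis, at 1.45.

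Further genes among the 15 highest and 15 lowest have varied functions. Stac3, known as an adaptor of muscle calcium channels, had number 2 signals of 1101, 724 and 765 against 11.5 to 133 (median 41.4) and a difference of 3.80 ± 0.72. Kcnj15, a potassium channel, differed by 3.63 ± 0.60, although its second, dimmer probe set gave 0.57. Fabp5, a fatty acid binding protein, differed by 3.18 ± 1.40 and was lowest with fish oil (2635, 1666 and 522), and Wfdc21 differed by 2.64 ± 0.80. On the other side, Cldn1, a tight junction protein, stood at 11.9, 30.2 and 104 against 173 to 515 (median 399) and differed by -2.82 ± 0.88, with -2.28 and -1.76 from its other probe sets. Aig1, a hydrolase of fatty acid esters, differed by -2.68 ± 0.24 (-0.05 from a dim second probe set), Cyp17a1, a steroid hydroxylase, by -2.41 ± 0.79, Rab30, a Golgi GTPase, by -2.22 ± 0.52, and Ephx2, which opens lipid epoxides, by -1.95 ± 0.36. Mt2A, a metallothionein, differed by -1.94 ± 0.48, with 797, 343 and 802 against a wide range of 984 to 5702 (median 2587).

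**Figure D3:**
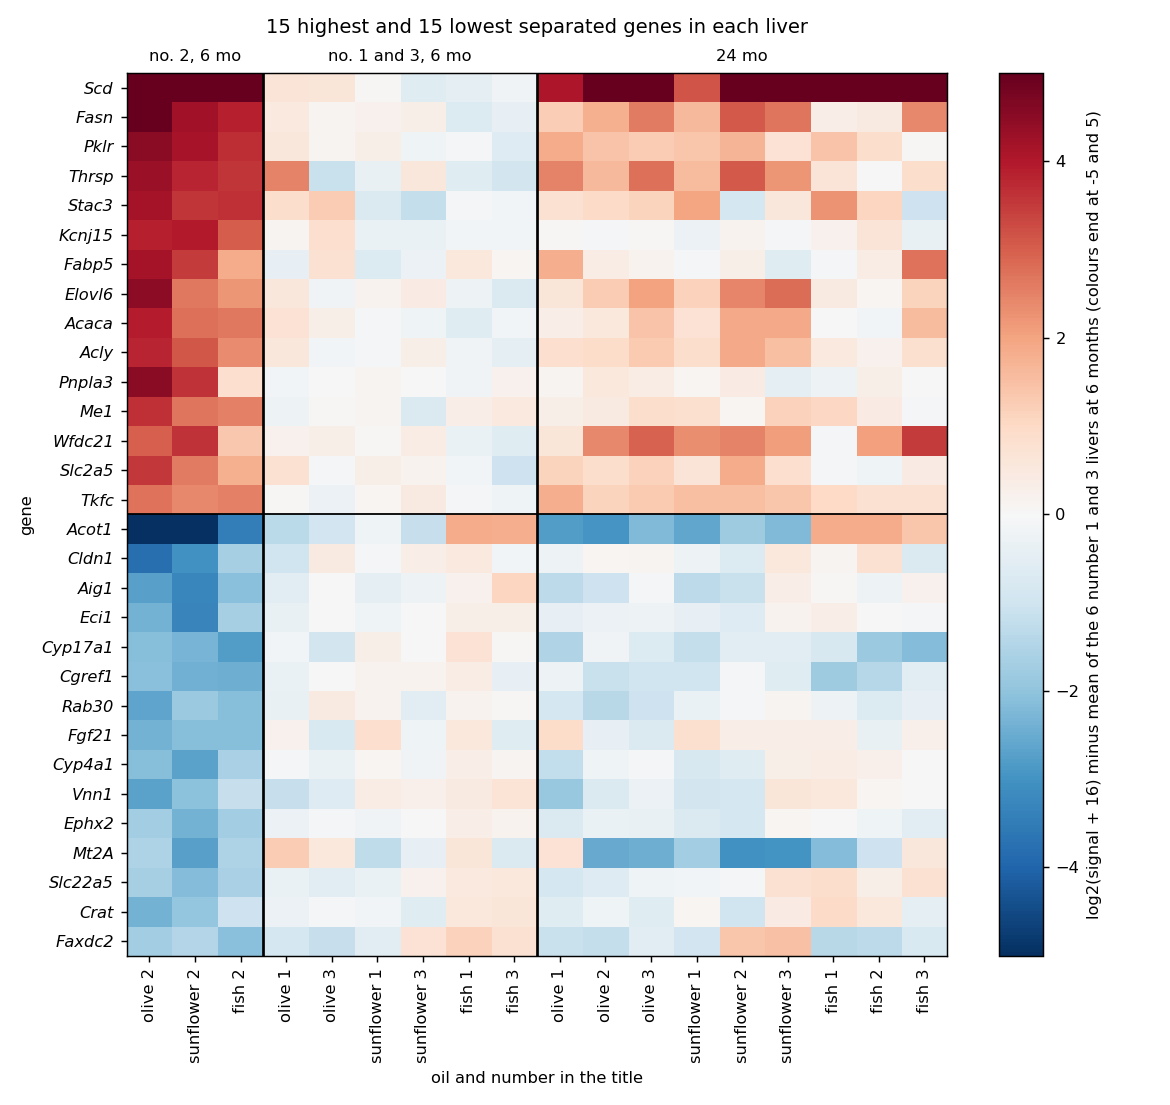
Rows are the 15 highest and 15 lowest separated genes with established symbols, columns are the 18 livers by oil and number, and colour is log2(signal + 16) minus the mean of the 6 number 1 and 3 livers at 6 months, ending at -5 and 5. The 3 number 2 livers at 6 months form the leftmost block, and the livers at 24 months are red for Scd but near the compared livers for Cyp4a1 and Eci1.

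Separated genes of other lists follow, beside a share of 1.18% over all genes. Of 21 measured insulin and growth factor genes Pik3r1, a regulatory subunit of PI3-kinase, was higher at 1.67 ± 0.54, Sesn1 at 1.10, and Trib3 was lower. Irs2, an insulin receptor substrate repressed by insulin, overlapped at -0.27 ± 0.44, and so did Igfbp1, another insulin-repressed gene, at -0.88 ± 0.58. Of 15 measured bile acid genes Nr0b2, the repressor SHP, was higher at 1.36 ± 0.34, while Cyp8b1, which sets the share of cholic acid, was lower at -1.32 ± 0.16, Abcg5 at -1.24 and Abcb4 at -1.03. Ccnd1, cyclin D1, was the separated gene among 23 cell cycle genes, at 1.72 ± 0.50. No member of the lipoprotein list (23 measured) or the interferon list (21 measured) was separated, with medians of -0.09 and 0.36. At a share of 1.18% this says little about these lists. Of the lipoprotein genes 5 lay below every compared liver and 0 above, beside 4.89% of all genes below. Of the interferon genes 4 lay above and 0 below, beside 3.83% of all genes above. Single genes were separated in the lists of oxidative phosphorylation (Cox5a, -1.11), glucocorticoid targets (Mt2A), unfolded protein and heat shock response (Hsph1, -1.15) and amino acid catabolism (Asl, -1.36). In the acute phase list C6 (1.51) and Hamp (1.05) were higher.

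The separated genes did not favour 1 oil uniformly. Among the 96 higher genes the difference was largest with olive oil in 37, with sunflower oil in 24 and with fish oil in 35. Among the 72 lower genes it was largest in size with olive oil in 14, with sunflower oil in 29 and with fish oil in 29. With 1 number 2 liver to an oil, these splits have no replicate check.

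The tissue label was checked with markers, none of which was separated in any of 13 cell type lists. With 1.18% of all genes separated, this says little. Of 8 pericentral hepatocyte markers 2 lay below every compared liver and 0 above, with differences from -1.26 to 0.46. Of 8 periportal hepatocyte markers 1 lay below and 0 above, with differences from -1.76 to 0.27. Over all genes 4.89% lay below every compared liver. The summed signal of 9 hepatocyte markers ran from 64886 to 76889 in the number 2 livers and from 65554 to 80169 in the others. The summed signal of 8 endothelial markers ran from 1422 to 1999 against 2233 to 2878, with no overlap, a median difference of -0.37 and 2 of the 8 below every other liver. For 8 macrophage markers the sums were 1425 to 2173 against 2047 to 2552, and for 5 erythroid markers 4799 to 5689 against 5161 to 9594, both overlapping. The markers Adipoq and Lep of fat, Cela2a and Ctrb1 of pancreas, Krt7 and Cftr of bile duct, Cd79b and Mzb1 of B and plasma cells, Cd3d, Cd5, Cd8a and Klrd1 of T and NK cells and Csf3r, Itgam, Cxcr2 and Ccr2 of granulocytes and monocytes stayed under a signal of 16 in all 9 livers. Other members of these lists carried signal, so absence of these cells is not shown. Summed signals in the number 2 livers were 831 to 1026 for 8 fat markers and 944 to 1108 for 9 pancreas markers. They were 1642 to 1891 for 9 monocyte and granulocyte markers and 351 to 515 for 6 bile duct markers. The compared livers had 903 to 1259, 947 to 1520, 1552 to 2044 and 320 to 444 in that order. The part of the lower endothelial signal in the gene differences was not tested. In bulk tissue, fewer cells of a type and less RNA per cell cannot be told apart. Array medians of the number 2 livers were 16.1, 18.4 and 16.1, within the range of 15.5 to 18.4 over all livers at 6 months.

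The same number at 24 months marks other animals, which the choice of the livers did not use, so it allows a test. The labels do not link the number across ages. The test therefore asks only whether this label goes with a difference at 24 months, and cannot speak to the livers at 6 months. Number 2 was compared with numbers 1 and 3 among the 9 livers at 24 months with limma, with the oil as a block and Benjamini-Hochberg adjustment over 14217 genes. At an adjusted p under 0.05 no gene passed (0%), with 475 (3.34%) at an unadjusted p under 0.05. Scd differed by 0.93 ± 1.05 (SE), Fasn by -0.06 ± 0.53 and Fgf21 by -0.47 ± 0.31, each with a limma adjusted p of 1.00. The 5 smallest p belonged to Kctd16 (0.80), Trmu (-0.65), Dlk2 (0.92), Gins3 (-0.64) and Tex30 (-0.75), none of which was separated at 6 months. By the separation rule itself, 1 gene at 24 months was higher (0.00703%), Rdh16, a retinol dehydrogenase, and 0 were lower. Of the 168 genes separated at 6 months 0 differed by 1 or more at 24 months, and 10 had an unadjusted p under 0.05. Among the higher genes 57 of 96 kept the sign, with a median of 0.07 at 24 months, and among the lower genes 45 of 72, with a median of -0.08. The median over all genes was -0.005 at 24 months. The shares of all genes that kept the sign or differed by 1 or more were not computed.

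**Figure D4:**
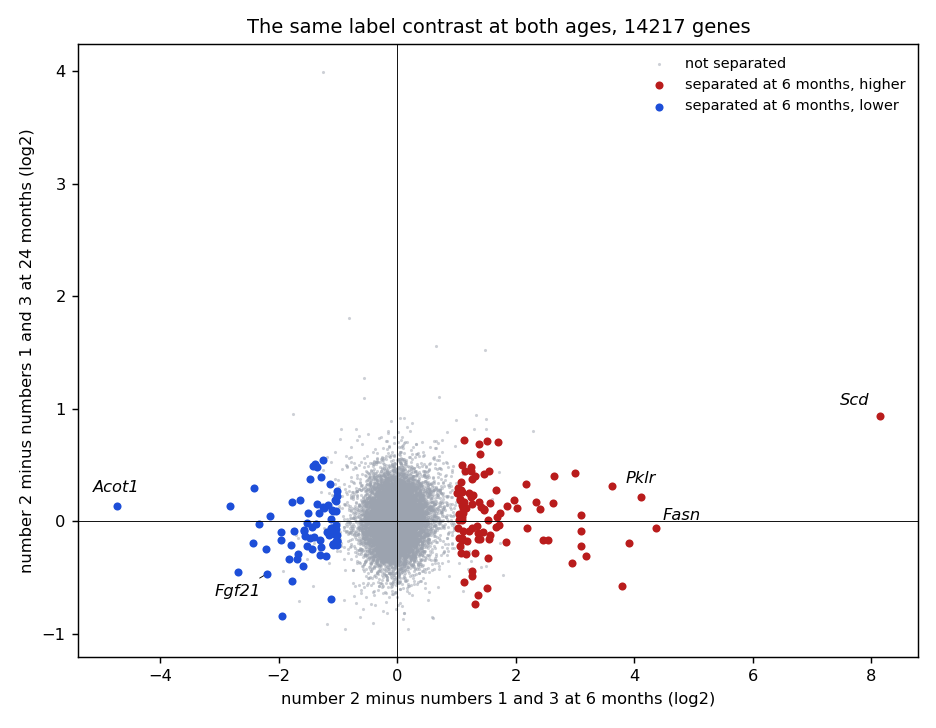
Each point is 1 of 14217 genes, with the difference of number 2 from numbers 1 and 3 at 6 months on the horizontal axis and at 24 months on the vertical axis (log2), red and blue for genes separated at 6 months. Scd lies at 8.15 and 0.93, and the separated genes spread along the horizontal axis with vertical values between -1 and 1.

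Levels of these genes still varied between single old livers. Scd signals at 24 months were 427.7, 4551 and 4876 in olive oil numbers 1, 2 and 3, 222.6, 2565 and 6131 in sunflower oil and 4317, 2535 and 1332 in fish oil. All 9 exceeded every number 1 and 3 liver at 6 months, and 7 lay beyond the log2 midpoint towards the number 2 livers, 1 of them (6131) within the number 2 range. Fasn ran from 84.5 to 645 (median 254), with 4 of 9 beyond that midpoint, and Thrsp from 413 to 3566 (median 1313), also 4 of 9. Pklr at 147 to 549.6 (median 393), Eci1 at 4144 to 7975 (median 5436) and Fgf21 at 126 to 425 (median 278) had 0 of 9 there. Over all separated genes, a majority of old livers lay on the number 2 side for 26 of 96 higher and 21 of 72 lower genes, and all 9 lay on the opposite side for 25 and 21. No share over all genes was computed for these counts, and the midpoint rests on the chosen number 2 livers, so no conclusion is drawn from them.

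A further comparison set number 3 against number 1 at 6 months with limma, with the oil as a block. This contrast is not the one that chose the number 2 livers, but it uses the same 9 livers, all of which enter its error. No gene passed at an adjusted p under 0.05 (0%), while 1300 (9.14%) had an unadjusted p under 0.05. Scd differed by -0.12 ± 0.23 (SE) and Fasn by -0.02 ± 0.20. Fgf21 was lower in number 3 than in number 1 in 3 of 3 oils, by -1.07 ± 0.14, and did not pass. No p is given for Scd, Fasn and Fgf21, since these genes chose the livers whose spread enters the error. A limma adjusted p of 0.177 applied to Tmed5 (1.94, a protein of vesicle transport), Zfpm1 (-1.31, a cofactor of GATA factors) and Tcim (1.57). Sptssb (-1.08, a subunit of serine palmitoyltransferase) had 0.246. Tmed5 passed with all 18 arrays in 1 fit (adjusted p = 0.0309) and without olive oil number 2 (0.0380). Rgs16, a regulator of G-protein signalling, passed without fish oil number 1 (-2.31, adjusted p = 0.0239). Dock11, a GTPase exchange factor, passed without fish oil number 2 (2.60, adjusted p = 0.00140), and so did Ugt2b, a glucuronosyltransferase (-7.73, adjusted p = 1.74e-05). Rgs16, Dock11 and Ugt2b are named because they passed there.

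Of 17 measured clock genes (20 listed) Per3 (1.21 ± 0.32) and Hlf (1.37 ± 0.18), an output factor of the clock, were separated and higher in the number 2 livers, and the list median was 0.16. The share of all genes separated and higher was 0.675%. Dbp, another output factor, stood at 705, 571 and 225 in number 2, 939.6, 270.5 and 179 in number 1 and 30.9, 116 and 46.8 in number 3, in the order of oils. Number 2 overlapped number 1, and number 3 was lowest in each oil. Number 2 differed from the others by 1.49 ± 0.33 (SD over oils) for Dbp, 0.01 ± 0.51 for Nr1d1, -1.28 ± 0.19 for Bmal1 and 0.93 ± 0.77 for Per1. None of these genes was separated. For number 3 against number 1, the ± values below are SE. The difference of number 3 from number 1 was -2.37 ± 0.52 for Dbp and -1.74 ± 0.34 for Nr1d1, a repressor within the clock, against 1.03 ± 0.32 for Bmal1, its core activator. Limma gave unadjusted p of 0.00161, 0.000783 and 0.0125 and adjusted p of 0.389, 0.389 and 0.489, so none passed. The list median of number 3 minus number 1 was -0.37, against 0.00 for all genes. The part of the hour of killing was not tested, since the labels do not give it.

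**Figure D5:**
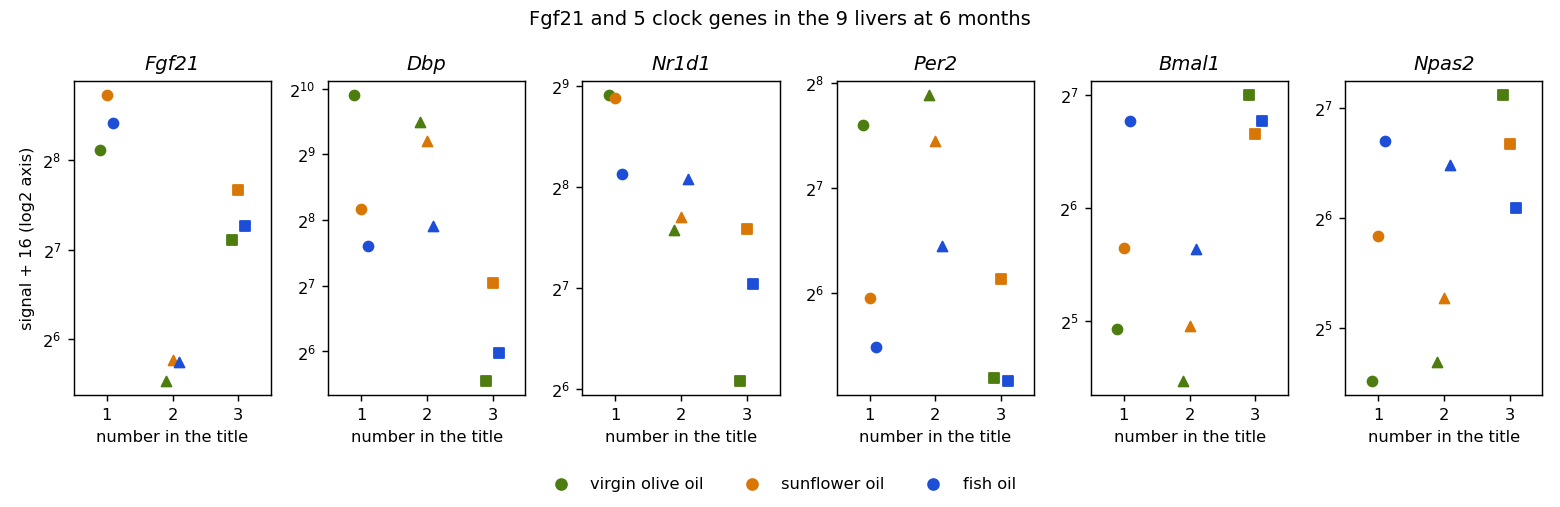
Signals plus 16 on log2 axes for Fgf21 and 5 clock genes in the 9 livers at 6 months, by the number in the title, with colour for the oil. Fgf21 falls into 3 bands without overlap, and Dbp and Nr1d1 are lower in number 3 than in number 1 in each oil.

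The oils were compared at 6 months with and without the number as a block. With limma's F test over the 3 oils and no block, no gene passed at an adjusted p under 0.05 (0%), with 566 (3.98%) at an unadjusted p under 0.05. With the number as a replicate block, 3 genes (0.0211%) passed and 1001 (7.04%) had an unadjusted p under 0.05. Rtn4ip1, a mitochondrial protein, was lower with fish than olive oil by 1.66 (adjusted p = 0.0392). Eif4ebp3, an inhibitor of translation initiation, was lower than with olive oil by 1.66 with sunflower and by 1.09 with fish oil (0.0440). Pex11a, a peroxisome proliferation factor and PPARα target, was higher with fish than olive oil by 1.54 (0.0440). Its signals were 733.8, 416.7 and 838.7 in fish oil numbers 1, 2 and 3, against 201.2, 152.6 and 294.3 with olive oil, and number 2 was the lowest in each. Acot1 was 2.57 higher with fish than olive oil, with an adjusted p of 0.134. Leaving out any 1 of the 9 arrays from the fit with the block, an alternative chosen after seeing the data, ended all calls.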

How the data were processed

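Liver RNA of 18 rats was hybridised to 1 Affymetrix array each. The values are the authors' deposited linear intensity values, from 0.0 to 14085.0, with a 2% trimmed mean of 99.17 to 99.39 on every array. RMA and Partek appear, with no version, in the submitters' processing notes, but RMA output is on the log2 scale with a common distribution, and these values are not. The steps that made them are not given in the sources used here. Of all values 47.3% lay under 16, array medians were 15.5 to 18.4 at 6 months and 18.5 to 20.6 at 24 months, and no 2 arrays held identical values. Precision is limited by the number of livers.

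Of 31042 probe sets, 20826 had 1 gene symbol, 436 several and 9780 none in the platform annotation, and 20758 of those with 1 symbol matched RefSeq. Where a gene had more than 1 probe set (4525 of 14217 genes), the brightest by mean log2(signal + 16) was taken. Models were fitted with limma 3.58.1 (functions lmFit and eBayes, R 4.3.3) within the 9 livers of an age, with Benjamini-Hochberg adjustment and a threshold of 0.05. They were also run on simulated data. Noise there was drawn independently for each array, so these runs do not cover deviations shared by same-numbered livers. Python 3.11.15, numpy 2.4.6, pandas 2.3.3 and matplotlib 3.10.9 were used for preparation, motif search and figures.

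The livers, the contrast, the gene lists and the tests were chosen with earlier results of these data known. Named genes were Scd, Fasn, Fgf21 and 33 core genes (26 measured), the 15 highest and 15 lowest separated genes with established symbols, up to 4 separated members of each list, and, for each tested comparison, the 5 smallest p or the genes past the threshold. Other named genes were chosen after their values were seen.

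At 6 months same-numbered livers of different oils deviated together from their group means (correlations of 0.15 to 0.46 over genes, every pair over 0.1), so the number was also used as a block. Correlations were 0.40 to 0.46 for number 2 and 0.15 to 0.31 for numbers 1 and 3. Each group mean includes its number 2 liver, so a shift shared by the number 2 livers also raises the correlations of the other numbers. They therefore cannot show that numbers 1 and 3 each act as a block. At 24 months the correlations were -0.11 to 0.20. Alternatives were other pseudocounts, a filter on dim genes, quantile and median scaling, all probe sets, number 1 or 3 alone as the compared livers, all 18 arrays in 1 fit, the replicate block and leaving out each array.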

Additional observations from a re-analysis of the deposited data

Results flagged for a closer look

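Among the core genes, 52 sets of livers (26 genes in 2 groups) were searched for a liver far from the rest of its group, and 4 stood out, where chance flags about 1 in 20. Insig1 was highest in olive oil number 3 at 6 months (2777), with a gap to the next liver of 0.726 of the group's range. Pdk4 was highest in the same liver (931.9), with a gap of 0.746. At 24 months Dbp was highest in sunflower oil number 2 (204.1), with a gap of 0.581, and Nr1d1 was highest in that liver too (133.4), with a gap of 0.498. For Me1, number 2 lay above the compared livers at 6 months (2.94) and below them at 24 months (-0.37) in every oil, a contrast between the ages that was not tested.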

How the results depend on the processing

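The separated genes at 6 months numbered 96 higher and 72 lower, and moved most with the pseudocount, to 170 and 155 with 1 and to 61 and 41 with 64. Over all probe sets 154 were higher, and against number 3 alone 146. Leaving out 1 liver gave 94 to 125 higher and 66 to 95 lower. Single genes were followed only for the 58 separated genes chosen by the naming rule. Separated genes named after their values were seen, such as Tkt and Taldo1, were not followed. Of 58 named separated genes 10 dropped out with a pseudocount of 64 (Mlxipl, Plin5, Agpat3, Sesn1, Trib3, Phgdh, Per3, Abcg5, Abcb4 and Cox5a), 3 under quantile scaling (Vnn1, Trib3 and Abcb4), 1 under median scaling (Vnn1), 3 against number 1 alone (Trib3, Per3 and Cox5a), 3 against number 3 alone (Abcg5, Abcb4 and Hamp) and 0 to 2 without any 1 liver, and none changed sign. Without 1 liver the losses were Hamp (0.964 without olive oil number 1, 0.997 without sunflower oil number 1), Mlxipl (0.998 without olive oil number 1, 0.983 without fish oil number 3), Abcb4 (-0.965 without fish oil number 1, -0.864 without olive oil number 2), Sesn1 (0.779 without olive oil number 2), Trib3 (-0.713 and -0.929 without sunflower oil number 2 or 3), Hsph1 (-0.796 without sunflower oil number 2) and Cox5a (-0.929 without olive oil number 3, -0.97 without sunflower oil number 3). Scd, Fasn and Fgf21 remained separated throughout. The cause of the other moves was not tested.

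At 24 months the count of genes past the threshold was 0 under every alternative run, and number 3 against number 1 gave 0 as reported, 1 with all 18 arrays and 0 to 2 without 1 liver. For the oils the replicate block raised the count from 0 to 3. The small difference of Fasn between numbers 3 and 1 turned positive under quantile (0.034) and median scaling (0.029). Without 1 liver it ran from -0.15 to 0.20, that of Scd from -0.30 to 0.18, and that of Fasn at 24 months from -0.54 to 0.38. Dim genes, with signals near 16, have little resolution, and with 3 livers in each group small differences could not be called.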

Other observations

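Ugt2b, a glucuronosyltransferase, was either high or near 0 in single livers, in a pattern that followed neither the lipogenic genes nor the oil. It was chosen after its values were seen. Its signal was 4939 to 6113 in 10 of the 18 livers and 3.9 to 17.7 in the other 8, with none between. At 6 months it was high in all 3 number 1 livers (5454, 4939 and 5678 with olive, sunflower and fish oil) and near 0 in all 3 number 3 livers (8.3, 17.7 and 3.9). Among the number 2 livers it was near 0 with olive oil (7.0) and sunflower oil (12.5) and high with fish oil (5759). Dock11, an exchange factor for a small GTPase, went the other way in numbers 1 and 3 and the same way in number 2. It stood at 13.1, 14.7 and 16.6 in number 1, at 147.4, 180.5 and 186.7 in number 3, and at 20.6, 30.2 and 160.9 in number 2. The fish oil number 2 liver thus sided with number 1 in Ugt2b and with number 3 in Dock11. The number 2 livers shared their lipogenic genes without sharing the level of these 2 genes. What sets these levels was not tested, and Ugt2b belongs to a family of near-identical genes whose probes may cross-hybridise.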
